A study of Mus musculus with 6 samples.

Results

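Serpins are a family of proteins that mostly inhibit serine and cysteine proteases, and they were compared here between mouse dorsal root ganglia (DRG) and spinal cord (SC). The members were all probe sets for which the platform annotation names a single gene whose symbol is Serpin, a clade letter from a to i and a number. Serping1 was left out by this rule. It gave 55 of the 45101 probe sets, for 39 of the 18193 genes named, and all 55 were tested. A probe set is the group of short probes on the array that together report a transcript, and 12 of the genes had more than 1. The DRG group comprised 3 arrays of total RNA from ganglia of the lumbar levels, both sides combined. The SC group comprised 3 arrays of lumbar spinal cord. The labels name no treatment or allele for either group. All animals were male, C57BL/6J and 3 months old, and each array carried a pool of 4 mice. The study's design calls the pools independent, so the SDs given are the spread between pools. In the SEs and intervals, that spread is moderated by the variance of other probe sets. The spread between single mice is not measured.

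An inhibitory serpin exposes a loop that resembles a protease substrate. When the protease cleaves this loop, the serpin changes shape and traps the protease in a covalent complex, so each inhibitor molecule is used once. Some members have lost inhibition and serve as hormone carriers, secreted factors or chaperones. Secreted serpins control clotting, fibrinolysis and complement in blood, whereas clade B members stay mainly inside cells and protect them from leaked granule or lysosomal proteases. In nervous tissue the family is best known through neuroserpin, an inhibitor of tissue plasminogen activator in neurons.

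Values are signals recovered from the deposited ratios, in MAS5 units on the deposited array scaling. A call means an adjusted p under 0.05 in limma's test, fitted on log2(signal + 16) over 45023 probe sets. Differences are DRG minus SC on that scale, which understates the change of dim probe sets. As a guide to dimness, the 95th percentile of 56 probe sets for 38 genes not expected in either tissue was taken on each array. This level was 106 to 130 on the DRG arrays and 109 to 158 on the SC arrays. Where a tissue is at or under it on all 3 arrays, a fold is given as a lower bound. Signals of different probe sets cannot be ranked against each other.

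Serpins with a call were nearly all higher in DRG, and most serpin probe sets were dim in both tissues. Of the 55 probe sets, 16 were called (29.1%), against 32.4% of all probe sets. The calls covered 11 genes. Of them 15 probe sets of 10 genes were higher in DRG, which is 27.3% of the serpin probe sets against 22.7% of all, and 1 was higher in SC, 1.82% against 9.78% of all. With a difference of at least 2-fold also required, 13 serpin probe sets were higher in DRG (23.6%, against 8.46% of all) and 1 in SC (1.82%, against 4.8% of all). The 3 DRG arrays lay wholly above the 3 SC arrays for 16 serpin probe sets (29.1%, against 28.4% of all) and wholly under them for 2 (3.64%, against 15.1%). The median serpin difference was 0.32, against 0.08 over all probe sets. Counted by probe set, the total of calls and the count of non-overlapping arrays in DRG were thus close to the background, while the 2-fold count toward DRG was above it. With 1 probe set per gene, 10 of 39 serpin genes were called higher in DRG and 1 in SC, against 5953 and 1860 of 18187 genes. The serpin share toward DRG was then under that of all genes, and the medians were 0.24 and 0.18. No test was made of the family as a group.

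**Figure D1:**
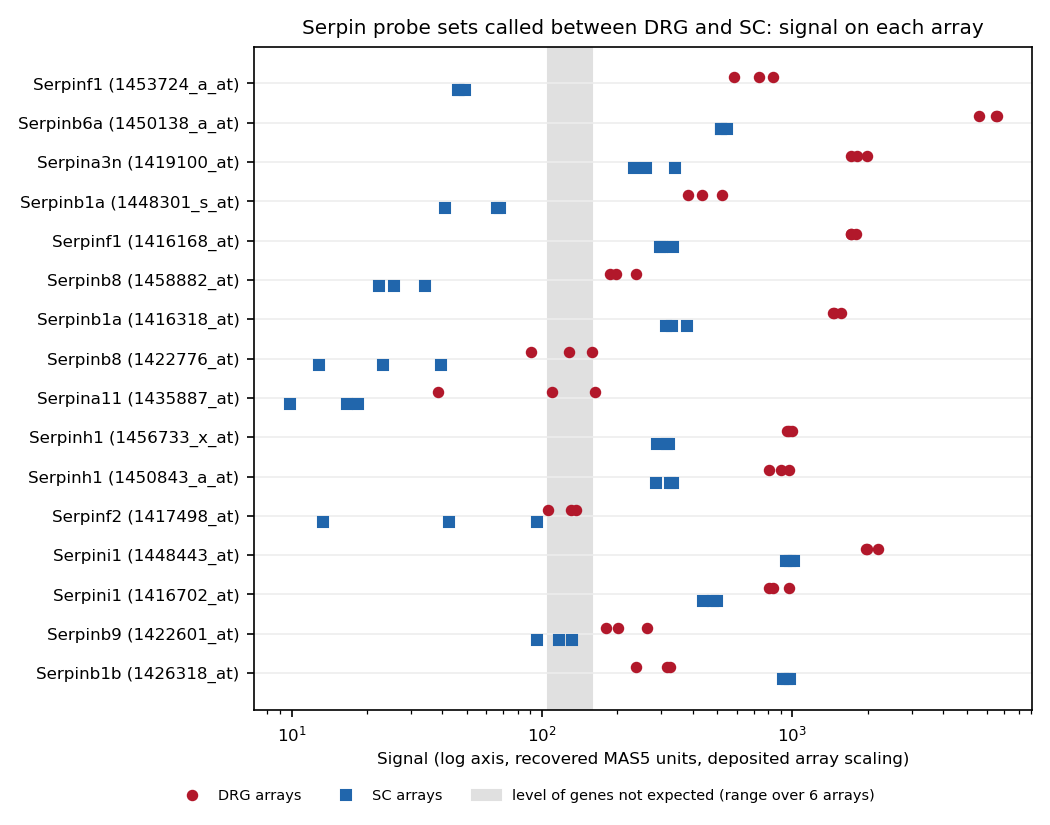
Signal on each array (log axis) of the 16 called serpin probe sets, ordered by their difference, with DRG arrays as circles above SC arrays as squares. The grey band is the range over the 6 arrays of the level of genes not expected. Serpinb1b is the probe set whose SC arrays lie above its DRG arrays.

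The dim part of the family was large. On all 6 arrays, 33 probe sets of 24 genes stayed at or under the level of genes not expected. The same held for 20407 of all 45023 probe sets. Signals of the 33 ran between 0.44 and 110.8, limma called 0 of them, and 2 had an unadjusted p under 0.05. Of all probe sets that dim, 1392 of 20407 (6.82%) were called. Leaving out 1 array brought calls at single dim probe sets. Without SC array 1 these were Serpina4-ps1 (1.24), Serpina1b (−1.29) and Serpinb5 (0.86), without SC array 3 Serpinb5 (1.25) and Serpini1 (0.95), without DRG array 1 Serpina1f (0.93), and without DRG array 3 Serpinb9g (−1.46). The 22 other probe sets, of 17 genes, were above the level on at least 1 array. A gene may count in both groups when its probe sets differ in brightness. The plot of all 55 differences shows the called probe sets by role.

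**Figure D2:**
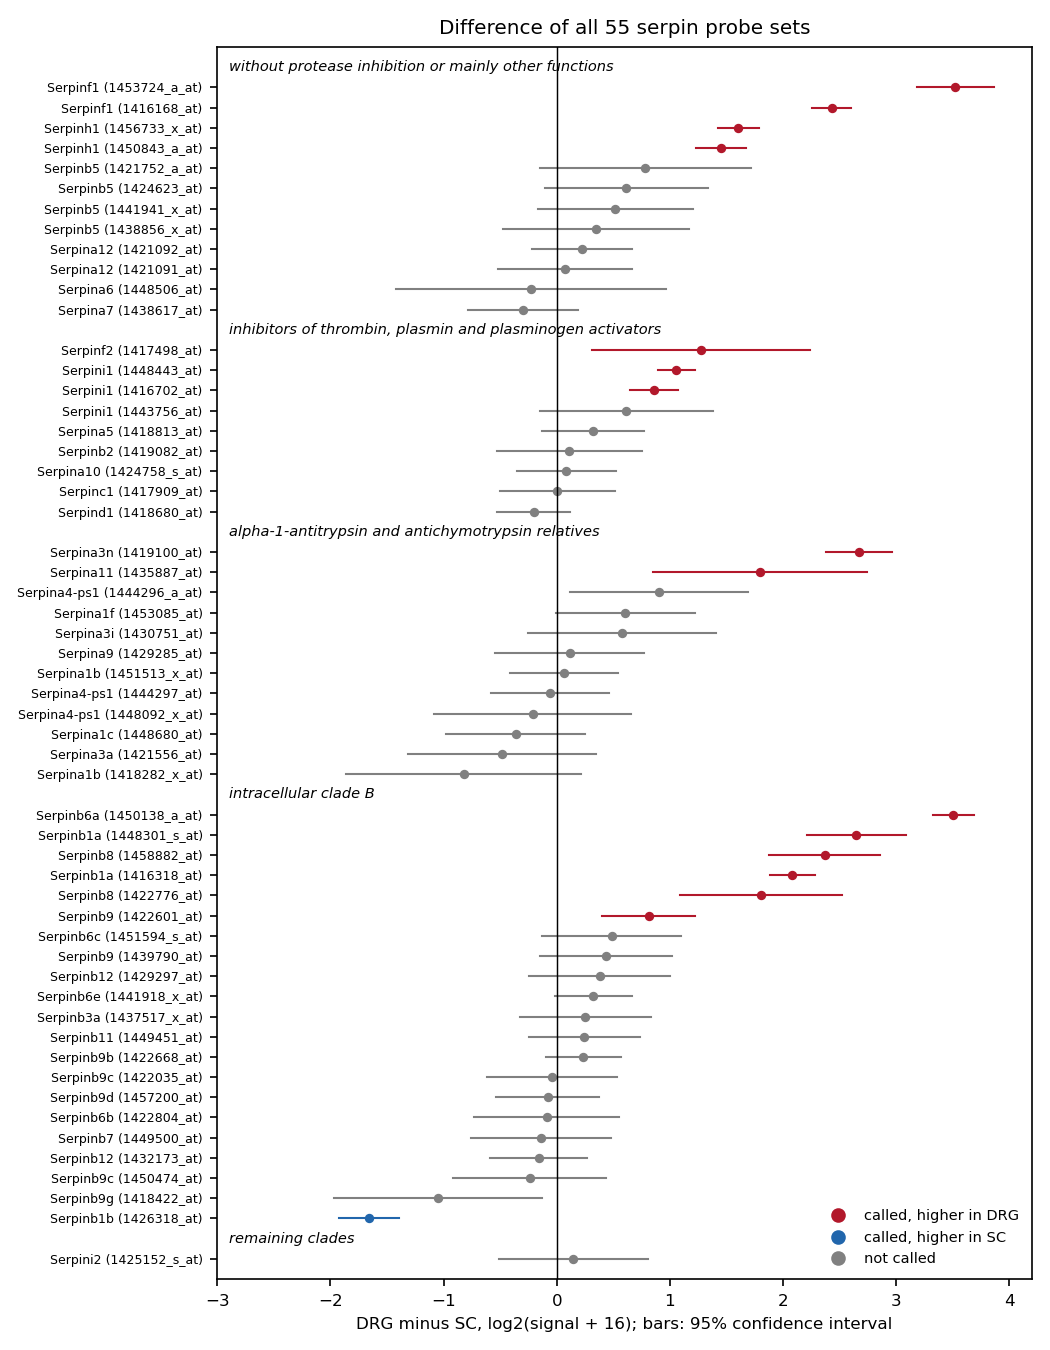
Difference DRG minus SC on log2(signal + 16) for all 55 serpin probe sets, grouped by role, with 95% confidence intervals. Red marks the 15 called higher in DRG, blue the 1 called higher in SC and grey the 39 not called.

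Among serpins without protease inhibition or with mainly other functions, 4 of 12 probe sets (6 genes) were called, all higher in DRG. This was 33.3%, against 32.4% of all probe sets called in either direction and 22.7% toward DRG. The median difference over the 12 was 0.57. Serpinf1 and Serpinh1 carried these calls. Serpinf1 encodes pigment epithelium-derived factor, a secreted protein known for restraining vessel growth and for supporting neurons. Its probe set 1416168_at had signals of 1718, 1713 and 1796 in DRG, against 296, 303 and 334 in SC. The DRG arrays all lay far above the SC arrays, with means of 1742 ± 46.7 in DRG and 311 ± 20.0 in SC (SD, n = 3 each). The ratio of the means was 5.60 and the log2 difference 2.43 ± 0.08 (SE; limma adjusted p = 3.56e-08). The other Serpinf1 probe set, 1453724_a_at, had signals of 735, 586 and 839 in DRG, against 49.5, 46.5 and 46.2 in SC. All SC arrays were under the level of genes not expected, and the gene was at least 5.49-fold higher in DRG (log2 difference 3.52 ± 0.15, limma adjusted p = 2.06e-07). The 2 probe sets thus gave the same direction.

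Serpinh1 encodes Hsp47, a chaperone of the endoplasmic reticulum that binds procollagen. Its probe set 1456733_x_at had signals of 969, 951 and 996 in DRG, against 316, 288 and 323 in SC. The second probe set, 1450843_a_at, had 805, 897 and 971 in DRG, against 286, 325 and 334 in SC. On both, every DRG array was above every SC array and both tissues exceeded the level given for genes not expected. The ratios of the means were 3.15 and 2.83 in the same order, and the log2 differences were 1.61 ± 0.08 (limma adjusted p = 5.03e-07) and 1.45 ± 0.10 (limma adjusted p = 3.61e-06). Both carry suffixes of probe sets that can match several transcripts, so no Serpinh1 value is left when such probe sets are removed.

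The genes that make, modify and move collagen, the client of Hsp47, were counted beside it. Of 32 genes for fibrillar and other collagens, their modifying enzymes and their transport, 31 were measured. Of these 25 were higher in DRG, 2 were higher in SC and 4 were not called, with a median difference of 0.91. The counts were 20 toward DRG and 2 toward SC before the array scaling, where the median was 0.54, and 18 and 2 after quantile normalization, where it was 0.83. Over all genes at 1 probe set each, on the deposited scaling, 31.8% were called toward DRG and 9.69% toward SC, and the median was 0.18. Over all 45023 probe sets, 6005 were called toward DRG and 8966 toward SC before the array scaling, with a median of −0.18. After quantile normalization these were 6723 and 6457, with a median of 0.01. Col3a1, a fibrillar collagen of soft tissue, had signals of 2045, 2421 and 2184 in DRG, against 278, 257 and 250 in SC (log2 difference 3.00, limma adjusted p = 2.34e-08). Pcolce, which speeds the trimming of procollagen, differed by 2.49, and the collagen chain genes Col1a1, Col5a2 and Col1a2 by 1.84, 1.79 and 1.63. Toward SC, Plod1, a lysyl hydroxylase, differed by −0.54 and Col11a1, a minor fibrillar collagen, by −0.45.

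Some collagen genes are also markers of fibroblasts and meninges, and most markers of that list were higher in DRG. Col1a1 and Col1a2 stand in both lists, so their calls and signals are counted in each. Of 6 such genes 5 were called higher in DRG and 1 was not called, and their summed signal was 13041 to 14364 in DRG and 2514 to 2847 in SC. Dcn had the largest difference of this list, 3.45. In tissue RNA, fewer cells of a type and less RNA per cell cannot be told apart. The part of fibroblast content in the values of Serpinf1, Serpinh1 and the collagen genes was not tested. The other members with such roles gave no call. They were Serpinb5 (maspin, a tumour suppressor), Serpina6 (the glucocorticoid carrier), Serpina7 (the thyroxine carrier) and Serpina12 (vaspin, an adipokine), and the level of genes not expected was exceeded by none of them.

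**Figure D3:**
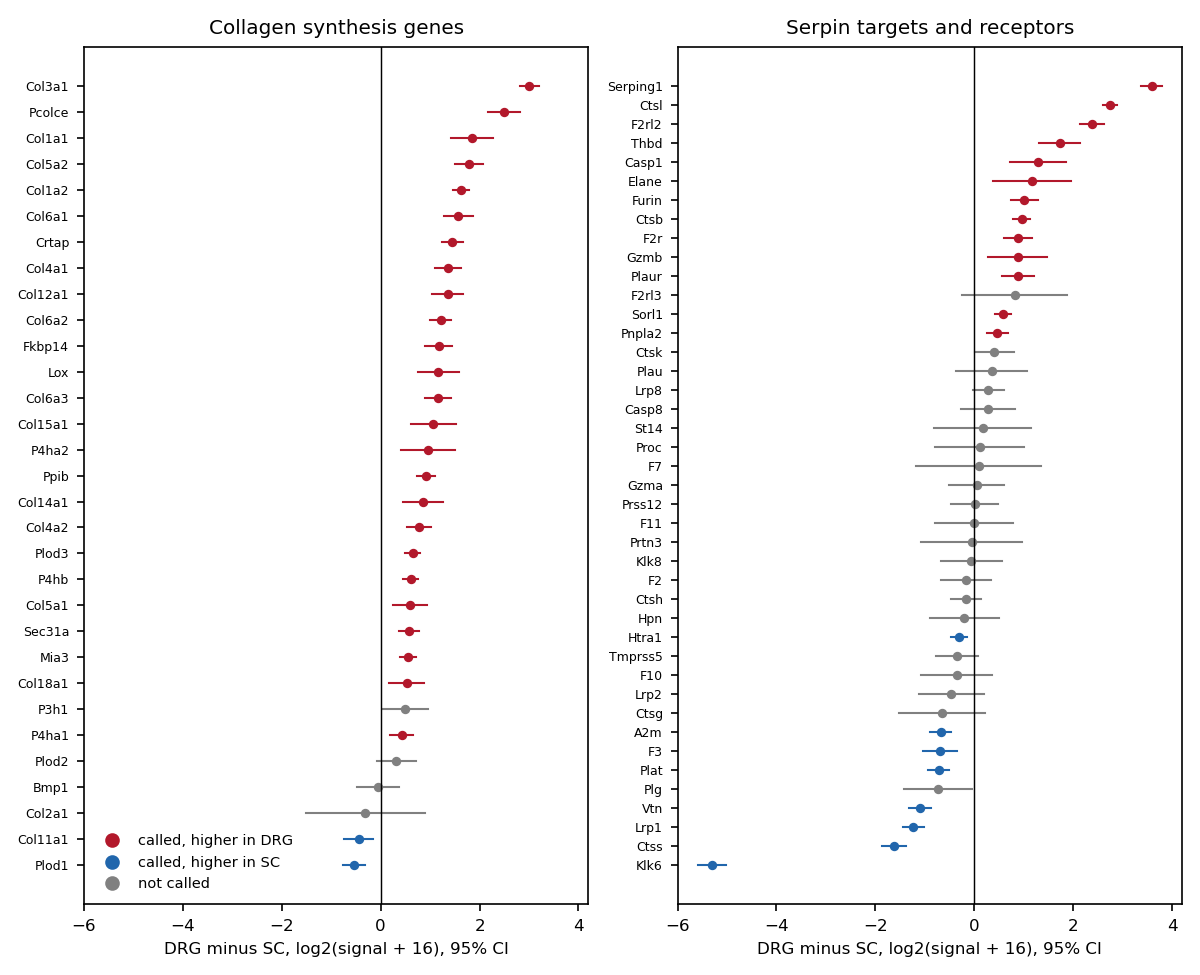
Difference DRG minus SC on log2(signal + 16), with 95% confidence intervals, for 31 collagen synthesis genes (left) and 42 serpin targets and receptors (right), 1 probe set per gene. Red marks genes called higher in DRG, blue genes called higher in SC and grey genes not called. The collagen list holds 25 red and 2 blue genes, the target list 13 red and 8 blue.

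Among inhibitors of thrombin, plasmin and plasminogen activators, 3 of 9 probe sets (7 genes) were called, all higher in DRG. This was 33.3%, against 32.4% of all probe sets called in either direction and 22.7% toward DRG. The median difference over the 9 was 0.32. Serpini1 encodes neuroserpin. Its probe set 1448443_at had signals of 2200, 1974 and 1983 in DRG, against 939, 981 and 1012 in SC. Its probe set 1416702_at had 973, 841 and 808 in DRG, against 481, 500 and 441 in SC. On both probe sets both tissues were well above the level of genes not expected and the arrays did not overlap, so this inhibitor was measured in DRG and in SC alike. The ratios of the means were 2.10 and 1.84, and the log2 differences 1.06 ± 0.07 (limma adjusted p = 3.96e-06) and 0.86 ± 0.09 (limma adjusted p = 7.78e-05). The size depended on the array scaling: after quantile normalization they were 0.51 and 0.46, and before the array scaling 0.69 and 0.50, with the call kept in each. A further probe set, 1443756_at, was under the level on all 6 arrays and was not called (difference 0.61, limma adjusted p = 0.22), but was without SC array 3 (0.95, limma adjusted p = 0.0420).

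Serpinf2 encodes alpha-2-antiplasmin, the main fast inhibitor of plasmin, and lies next to Serpinf1 in the order of serpin genes on chromosome 11. Its signals were 137, 106 and 130 in DRG, against 95.2, 42.6 and 13.4 in SC. The arrays did not overlap, but the DRG arrays stood near the level of genes not expected and the SC arrays under it, so no fold is given. Its call was the least secure of the 16, with a log2 difference of 1.28 ± 0.43 (limma adjusted p = 0.0465), and it was lost in 10 of 14 alternatives. Over these 14 the limma adjusted p ranged from 0.00558 to 0.144. Leaving out any of the DRG arrays, or SC array 2 or 3, ended the call.

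Other inhibitors of clotting proteases gave no call on the deposited scaling. Serpind1, heparin cofactor II, had signals of 163, 154 and 160 in DRG, against 205, 157 and 197 in SC (difference −0.20, 95% interval −0.53 to 0.12, limma adjusted p = 0.344). Before the array scaling Serpind1 was called higher in SC (−0.54, limma adjusted p = 0.0155). Serpina10, which inhibits factor Xa with protein Z, had 132, 114 and 180 in DRG, against 150, 120 and 124 in SC (difference 0.08, interval −0.35 to 0.52). Serpinc1 (antithrombin), Serpina5 (protein C inhibitor) and Serpinb2 (a plasminogen activator inhibitor) were under the level on all arrays, with differences of 0.00, 0.32 and 0.11 and no call. All of these intervals include 0, which does not show that the levels are alike.

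The proteases that serpins trap, and the receptors that clear the complexes or sense the proteases, had calls in both directions. Of 43 such genes 42 were measured. Of these 13 were higher in DRG (31.0%, against 31.8% of all genes), 8 were higher in SC (19.0%, against 9.69% of all genes) and 21 were not called. The median difference was 0.07, against 0.18 over all genes. Before the array scaling the split was 10 toward DRG and 11 toward SC and the median turned to −0.17, and after quantile normalization 11 and 8. The split over all 45023 probe sets was 6005 and 8966 before the array scaling, and their median turned likewise, to −0.18. After quantile normalization it was 6723 and 6457. The list also holds Serping1 and A2m, which are inhibitors of proteases and not targets. Serping1, the complement C1 inhibitor, had the largest difference of the list toward DRG, 3.58, with mean signals of 2879 ± 133 in DRG and 226 ± 27.6 in SC (SD, n = 3 each; limma adjusted p = 1.72e-08).

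Ctsl, the lysosomal protease cathepsin L, had signals of 7547, 7672 and 7963 in DRG, against 1156, 1153 and 1110 in SC (log2 difference 2.74, limma adjusted p = 9.31e-09). F2rl2, a thrombin-sensing receptor of the protease-activated family, differed by 2.38, Thbd, the thrombin-binding thrombomodulin, by 1.72. Casp1, the inflammasome caspase, was called higher in DRG too (limma adjusted p = 0.00295), but only 1 DRG array and no SC array exceeded the level of genes not expected, so no fold is given. Toward SC, the secreted protease Klk6 had signals of 20.2, 17.7 and 16.9 in DRG, against 1466, 1289 and 1264 in SC, at least 11.3-fold higher in SC (log2 difference −5.30, limma adjusted p = 8.53e-09). Klk6 is known as an oligodendrocyte product. Of 5 measured oligodendrocyte markers 5 were higher in SC, with summed signals of 202 to 286 in DRG and 7242 to 7859 in SC. The part of oligodendrocyte content in the Klk6 difference was not tested.

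Other targets and receptors were higher in SC by smaller amounts. The microglial protease Ctss averaged 442 ± 66.1 in DRG and 1386 ± 89.9 in SC (SD, n = 3 each; log2 difference −1.62). Lrp1, the endocytic receptor of serpin and protease complexes, differed by −1.24 and Vtn, vitronectin, by −1.10. Plat, tissue plasminogen activator and the main target of neuroserpin, had signals of 280, 253 and 308 in DRG, against 474, 464 and 479 in SC (log2 difference −0.72, limma adjusted p = 0.000315). Neuroserpin and its target thus differed in opposite directions between the tissues, on all 3 scalings. All 10 target genes named here, Serping1 included, kept call and direction under quantile normalization and before the array scaling.

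Of the relatives of alpha-1-antitrypsin and antichymotrypsin, 2 of 12 probe sets (9 genes) were called, both higher in DRG. This was 16.7%, against 32.4% of all probe sets called in either direction and 22.7% toward DRG. The median difference was 0.09. Serpina3n, a secreted inhibitor related to human antichymotrypsin, had signals of 1987, 1810 and 1712 in DRG, against 259, 341 and 234 in SC. All 6 arrays were above the level of genes not expected, and the lowest DRG array was far above the highest SC array. The ratio of the means was 6.60 and the log2 difference 2.67 ± 0.13 (limma adjusted p = 4.42e-07). Serpina3n is well known from reactive astrocytes. All 6 general astrocyte markers measured were higher in SC, with summed signals of 657 to 785 in DRG and 17282 to 19517 in SC. Which cells carried the Serpina3n signal in either tissue was not tested.

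Serpina11 had signals of 164, 38.3 and 109 in DRG, against 18.4, 9.82 and 16.7 in SC. The arrays did not overlap, but the DRG pools spread widely, and only 2 of them exceeded the level for genes not expected, so no fold is given (log2 difference 1.80 ± 0.42, limma adjusted p = 0.00846). Serpina1c, one of the mouse copies of alpha-1-antitrypsin, had 153, 285 and 210 in DRG, against 272, 189 and 396 in SC, and its arrays overlapped (difference −0.36, interval −0.97 to 0.25, limma adjusted p = 0.381). The other members of this group, Serpina1b, Serpina1f, Serpina3a, Serpina3i, Serpina9 and the pseudogene Serpina4-ps1, were under the level on all arrays. Genes of this clade are made mostly by liver. Of 6 liver markers 1 was higher in DRG and 5 were not called, with summed signals of 317 to 491 in DRG and 238 to 726 in SC. The 13 clade A serpins on chromosome 12 lie in a run that ends with Serpina3i and Serpina3n, and 2 of their 17 probe sets were called (11.8%, against 32.4% of all probe sets), both higher in DRG.

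Clade B held the only call toward SC, beside some of the largest differences toward DRG. Of its 21 probe sets for 16 genes in this group, 6 were called higher in DRG (28.6%, against 22.7% of all probe sets). Toward SC 1 was called (4.76%, against 9.78% of all). The other 14 were not called, and the median difference was 0.25. Serpinb6a, an intracellular inhibitor that can block cathepsin G, had signals of 6490, 5541 and 6543 in DRG, against 520, 519 and 549 in SC. Every DRG array lay far above every SC array, and both tissues were above the level of genes not expected. The means were 6191 ± 564 in DRG and 529 ± 17.0 in SC (SD, n = 3 each), a ratio of 11.7, and the log2 difference was 3.51 ± 0.08 (limma adjusted p = 8.53e-09). Serpinb6a has a single probe set, of the kind that can match several of the gene's transcripts.

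Serpinb1a encodes an inhibitor of neutrophil elastase, cathepsin G and proteinase 3. Its probe set 1416318_at had signals of 1568, 1471 and 1447 in DRG, against 330, 313 and 381 in SC. Its probe set 1448301_s_at had 435, 382 and 522 in DRG, against 66.0, 40.9 and 68.0 in SC. The tissues did not overlap on either. Probe set 1448301_s_at is of the kind that can match several transcripts. The first gave a ratio of 4.38 and a log2 difference of 2.08 ± 0.09 (limma adjusted p = 2.06e-07), and the second was at least 3.41-fold higher in DRG (2.65 ± 0.19, limma adjusted p = 5.78e-06).

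Its close copy Serpinb1b went the other way. Serpinb1b had signals of 314, 237 and 326 in DRG, against 981, 919 and 949 in SC. Both tissues exceeded the level for genes not expected, the arrays did not overlap, and the mean in SC was 3.25 times that in DRG. The log2 difference was −1.66 ± 0.12 (interval −1.93 to −1.39, limma adjusted p = 5e-06). It kept its call and direction in all 15 alternatives in which it was tested, with differences between −2.04 and −1.52. No test compared the paralogues with each other.

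Serpinb8, whose human form inhibits furin, was called on both its probe sets. Probe set 1458882_at had signals of 197, 187 and 238 in DRG, against 25.6, 34.1 and 22.3 in SC, at least 1.59-fold higher in DRG (log2 difference 2.37 ± 0.22, limma adjusted p = 2.48e-05). Probe set 1422776_at had 159, 128 and 90.6 in DRG, against 23.1, 39.6 and 12.8 in SC (1.81 ± 0.32, limma adjusted p = 0.00162). SC was under the level of genes not expected throughout, and on the second probe set only 1 DRG array was above it. Serpinb9, the inhibitor of granzyme B, had 201, 263 and 181 in DRG, against 117, 131 and 95.7 in SC on probe set 1422601_at, a ratio of 1.87 (log2 difference 0.81 ± 0.18, limma adjusted p = 0.00686). Before the array scaling its call was lost (0.48, limma adjusted p = 0.0861), and its second probe set was dim and not called.

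Proteases of leukocytes are known targets of several of these clade B members, and leukocyte markers varied between arrays. Of 6 markers of neutrophils and lymphocytes 2 were higher in DRG and 4 were not called. Their summed signals were 2344 to 3633 in DRG and 795 to 2594 in SC, and these ranges overlap. Of 6 microglia and macrophage markers 1 was higher in DRG, 3 were higher in SC and 2 were not called. The sets of arrays of Serpinb6a, Serpinb1a and Serpinb1b did not overlap between tissues. The same held for 28.4% of all probe sets with DRG higher and 15.1% with SC higher, and it does not bear on cell content. The part of blood or immune cells in the clade B values was not tested.

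Other clade B genes gave no call in the reported fit. Serpinb6e had signals of 427, 380 and 281 in DRG, against 259, 293 and 296 in SC on a probe set of the _x_at kind (difference 0.32, limma adjusted p = 0.142), its sign turned before the array scaling (−0.03), and it was called higher in DRG without DRG array 3 (0.49, limma adjusted p = 0.0147). Serpinb9b had 141, 163 and 151 in DRG, against 122, 133 and 123 in SC, without overlap (0.24, limma adjusted p = 0.282). Serpinb11 had 86.0, 105 and 130 in DRG, against 80.3, 78.0 and 104 in SC (0.24, limma adjusted p = 0.466). Serpinb9g had 3.26, 19.9 and 45.5 in DRG, against 72.4, 52.9 and 46.2 in SC, all under the level of genes not expected (−1.05, limma adjusted p = 0.0811). Serpinb9g was called higher in SC before the array scaling (−1.28, limma adjusted p = 0.0308) and without DRG array 3 (−1.46, limma adjusted p = 0.0159). Serpinb3a, Serpinb6b, Serpinb6c, Serpinb7, Serpinb9c, Serpinb9d and Serpinb12 were under that level on all arrays, as was Serpini2 of the remaining clades.

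The clade B genes of chromosome 13 held calls in both directions. In gene order they are Serpinb1a, Serpinb6b, Serpinb9, Serpinb9b, Serpinb1b, Serpinb9c, Serpinb9d, Serpinb9g, Serpinb6e, Serpinb6c and Serpinb6a. Of their 14 probe sets for 11 genes, 4 were called higher in DRG (28.6%, against 22.7% of all probe sets), 1 was called higher in SC (7.14%, against 9.78%) and 9 were not called. These shares are near those of all probe sets. The genes higher in DRG, Serpinb1a, Serpinb9 and Serpinb6a, are separated in this order by genes without a call and by Serpinb1b.

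**Figure D4:**
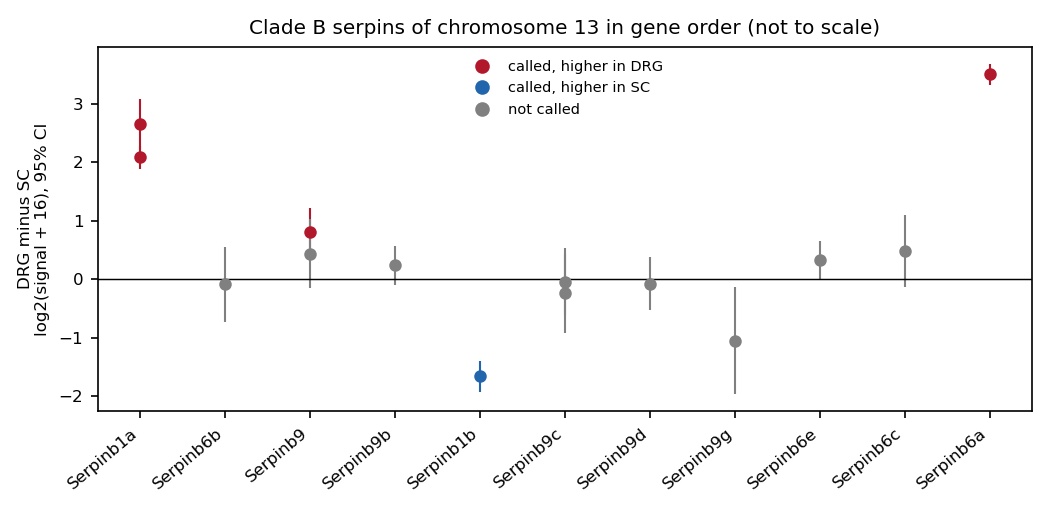
Difference DRG minus SC on log2(signal + 16), with 95% confidence intervals, of 14 probe sets of the 11 chromosome 13 clade B serpins, in gene order and not to scale. Serpinb1a and Serpinb6a, at the ends of the run, lie above 2, and Serpinb1b lies at −1.66.

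The 250 bases before the annotated start are shown for Serpinb6a, which has 2 annotated starts, and for Serpinb1b and Serpinf1, because these genes had the largest differences or the opposite direction. Sequences are from RefSeq on GRCm38.p6, read 5′ to 3′ along the gene's strand. Capitals mark matches on either strand. The letters searched were GGGCGG, known as the GC box, then CCAAT, bound by the factor NF-Y, and TTCNNNGAA, the core of STAT-type sites.
Serpinb6a, chr13:33936084-33936333, minus strand: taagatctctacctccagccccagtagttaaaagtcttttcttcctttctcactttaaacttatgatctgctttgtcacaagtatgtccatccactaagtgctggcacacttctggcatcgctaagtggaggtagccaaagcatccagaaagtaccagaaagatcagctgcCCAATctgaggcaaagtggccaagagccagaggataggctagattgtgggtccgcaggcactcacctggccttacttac
Serpinb6a, chr13:34002795-34003044, minus strand: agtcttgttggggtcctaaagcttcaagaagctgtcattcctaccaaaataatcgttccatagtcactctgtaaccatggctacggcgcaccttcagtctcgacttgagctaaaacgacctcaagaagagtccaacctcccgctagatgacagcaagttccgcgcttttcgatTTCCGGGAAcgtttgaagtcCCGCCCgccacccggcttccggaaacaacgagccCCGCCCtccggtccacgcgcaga
Serpinb1b, chr13:33083853-33084102, plus strand: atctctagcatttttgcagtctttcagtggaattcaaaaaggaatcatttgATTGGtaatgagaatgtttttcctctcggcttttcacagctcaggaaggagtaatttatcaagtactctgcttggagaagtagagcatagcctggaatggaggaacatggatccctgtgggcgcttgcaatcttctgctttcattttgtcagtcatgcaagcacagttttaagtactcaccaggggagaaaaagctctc
Serpinf1, chr11:75422624-75422873, minus strand: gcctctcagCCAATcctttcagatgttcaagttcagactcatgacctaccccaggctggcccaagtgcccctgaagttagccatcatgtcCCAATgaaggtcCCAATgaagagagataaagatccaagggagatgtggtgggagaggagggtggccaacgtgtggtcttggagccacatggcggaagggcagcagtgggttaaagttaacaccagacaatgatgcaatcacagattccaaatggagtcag
Of the 39 serpin genes, 34 had 40 such windows in the table used, and 10 of the 11 called genes had 12. A CCAAT match stood in 14 of the 40 serpin windows and in 6 of the 12 of called genes, against 33.8% of 32851 windows of all genes. A GC box stood in 6 and 2, against 32.7%, and a STAT-type pair in 7 and 3, against 7.02%. The TATA box, searched as TATAAA, stood in 10 of the 40 serpin windows and in 0 of the 12, against 12.4%, and the heat shock pair GAANNTTC in 2 and 0, against 6.69%. Windows of nearby starts can overlap, and a match they share is counted in each. The called gene Serpina11 has 2 overlapping windows that hold the same CCAAT and STAT-type matches. Overlapping windows of Serpina7 and of Serpinb2 share a TATA match. The letters are a description of these windows only, and no factor's binding was measured.

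Markers of the dissected tissues followed the labels. Of 5 measured sensory neuron markers 5 were higher in DRG, with summed signals of 21388 to 22494 in DRG and 459 to 618 in SC, and of 4 markers of Schwann and satellite glia 3 were. Of 6 spinal neuron markers 4 were higher in SC and 1 in DRG. Of 6 markers of endothelium and mural cells 3 were higher in DRG and 1 in SC. Of 3 red cell markers 1 was higher in DRG, and of 4 adipocyte markers 3 were. Muscle markers, with 0 of 6 called, had summed signals of 445 to 1764 in DRG and 451 to 2060 in SC and were high on DRG array 3 and on SC arrays 2 and 3. The part of cell makeup in the serpin differences was not tested.

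The array scaling set part of the direction of small differences. Before the authors' array scaling the median of all probe sets was −0.18, against 0.08 on the deposited scaling and 0.01 after quantile normalization. Calls over all probe sets were 10200 toward DRG and 4405 toward SC on the deposited scaling, 6005 and 8966 before it, and 6723 and 6457 after quantile normalization. The serpin calls changed less. Of the 55 serpin probe sets, 15 were called toward DRG and 1 toward SC on the deposited scaling. Before the array scaling these counts were 13 and 3, and after quantile normalization 14 and 1. The share toward DRG thus fell further over all 45023 probe sets than among the serpins. The added calls toward SC were Serpind1 and Serpinb9g. Of the 16 called probe sets, 14 kept their call and direction in every alternative in which they were tested, Serpinf2 and Serpinb9 being the exceptions, and 0 turned direction.

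**Figure D5:**
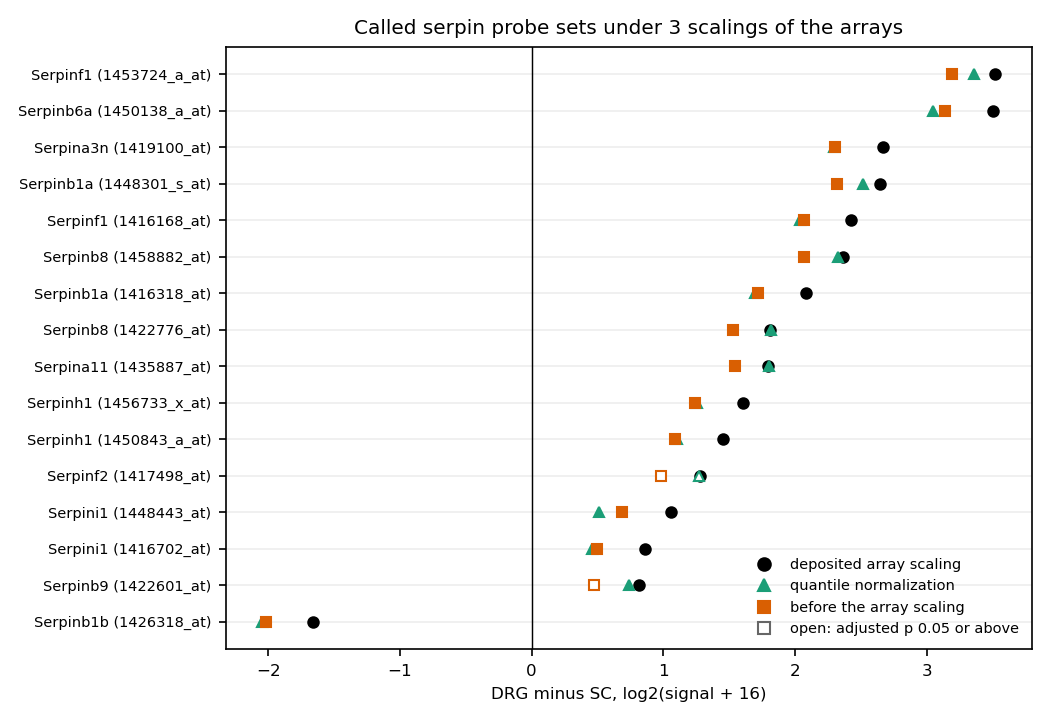
Difference DRG minus SC on log2(signal + 16) of the 16 called serpin probe sets under 3 scalings of the arrays. Filled symbols have an adjusted p under 0.05. Serpinf2 is open under 2 scalings and Serpinb9 under 1, and no probe set crosses 0.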

How the data were processed

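RNA of 3 DRG and 3 SC pools was measured on 3′ expression arrays with biotin label. The submitters' processing notes name MAS5, without a version. The deposited values are linear ratios. How they were made was inferred from the numbers themselves, no source used here describing it. Their median over the 6 arrays was 1 for 91.8% of probe sets (tolerance 1e-05). They were therefore taken as MAS5 signals divided by an array factor and by the probe set's median. The tests had been planned for signals recovered from such ratios.

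Signals were recovered from their 0.1 steps as the smallest multiplier that puts all 6 values on whole steps, for 45087 of 45101 probe sets. The other 14 hold no serpin and were left out, with the control probe sets. In a simulation 98.55% of probe sets came back exactly and 1.45% were off by one whole-number factor on every array. Such a factor changes a level and, through the pseudocount, the difference of a dim probe set. DRG arrays had factors of 84.9, 89.5 and 84.5, SC arrays 110.5, 111.9 and 112.6, and this scaling was kept. Arrays correlated (Pearson) at 0.966 to 0.970 among DRG, at 0.966 to 0.969 among SC and at 0.891 to 0.898 across tissues.

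The tissues were compared with limma 3.58.1 (R 4.3.3; lmFit, eBayes with trend, two-sided) on log2(signal + 16). P-values were adjusted over 45023 probe sets by Benjamini-Hochberg, with a threshold of 0.05. The test was tried on simulated data. Lists used each gene's brightest probe set. Names come from the platform annotation, and 34741 of 34945 probe sets naming 1 gene matched RefSeq. Every serpin could be named. Of the target and collagen lists, up to 5 called genes per direction with the largest difference and no overlap of arrays were named, and of a marker list its called gene with the largest difference. Members and lists were chosen with earlier results of these data known. For a lower bound, the tissue with more signal was averaged on the log2 scale and compared with the same average, in the dimmer tissue, of whichever was higher on each array, the level of genes not expected or the signal itself. The number of arrays limits the precision, and the labels name no batch.

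Alternatives were other scalings, pseudocounts of 1 and 64, the log2 of the deposited ratio, a filter on dim probe sets, 1 probe set per gene, removal of probe sets that can match several transcripts, no intensity trend, a replicate block and leaving out each array. Other software was matplotlib 3.10.9, numba 0.67.0, numpy 2.4.6 and pandas 2.3.3 under Python 3.11.15.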

Additional observations from a re-analysis of the deposited data

How the results depend on the processing

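The serpin calls numbered 16 in the reported test and between 11 and 19 over 16 alternatives. The lowest counts came from settings that test fewer serpin probe sets. They were 12 of 18 above the median signal and 11 of 39 with 1 probe set per gene. Without probe sets that can match several transcripts the count was 11 of 38. Over all probe sets the same settings called 13322 of 22511, 7813 of 18187 and 10376 of 36072, in that order. Against these, the serpin share was higher above the median signal, lower with 1 probe set per gene and close in the last setting. Leaving out each array in turn gave 15 to 19 calls. The median serpin difference of 0.32 was 0.11 before the array scaling, 0.62 with a pseudocount of 1, 0.13 with a pseudocount of 64, 0.65 on the log2 of the deposited ratio and 0.96 above the median signal. The calls over all probe sets were 14605, and 7813 with 1 probe set per gene, where fewer were tested. Of the 39 serpin probe sets without a call, 9 passed the test in at least 1 alternative, and 18 turned sign somewhere without a call. Of the named genes of the collagen list, Col11a1 had an adjusted p of up to 0.105 by limma over its alternatives. Other called genes of that list lost their call too. The list held 27 calls in the reported test, 22 before the array scaling and 20 after quantile normalization.

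The deviations of same-numbered DRG and SC arrays from their tissue means correlated at −0.00995, −0.0210 and 0.00339 over all probe sets. Low correlations over all probe sets, many of them dim, cannot decide whether replicate numbers pair the pools. The reported test used no pairing. With the replicate block, 16 serpin probe sets were called, 15 higher in DRG and 1 in SC, and 14147 of all probe sets. Signal near the level of genes not expected limits what can be said of the 33 dim serpin probe sets.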
